A study of Mus with 14 samples.

Results

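Pro-B cells that express Dntt were described in single-cell transcriptomes of mouse bone marrow. A cell was taken as a Dntt-positive pro-B cell if it held at least 1 unique molecular identifier (UMI, a tag that marks 1 captured RNA molecule) of Dntt, at least 2 of Vpreb1, Vpreb3 and Igll1 together, at least 1 of Cd79a and 0 of Ms4a1. These 4 criteria selected 2104 of 70038 cells (3.004%) that held at least 1000 UMIs, at least 500 genes and less than 10% mitochondrial UMIs. They are called pro-B cells below, and the genes of the criteria are given as description only.

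Each of the 14 libraries came from 1 mouse, and the genotype labels give 4 groups: MxCre with 3 mice, Dnmt3a with 4, Dnmt3a;Tnfr1KO with 3 and Dnmt3a;Tnfr2KO with 4. All mice were secondary transplant recipients on a CD45.1+ background, aged and lethally irradiated, and were harvested 20 weeks after transplant. The primary transplants competed CD45.2+ cells against CD45.1+ marrow, and 1 injection of poly(I:C), which induces the interferon-responsive Mx promoter that drives Cre, was given after engraftment in every group. Cells sorted as Lin-Kit+CD45.2+, that is donor-derived, without lineage markers and with Kit on the surface, were captured for 3' sequencing. The labels name neither the Dnmt3a allele, the lineage antibodies nor the primary donors of each mouse, so a donor may be common to several mice of 1 group.

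Pro-B cells are the first cells committed to the B lineage. Under the control of the transcription factors Ebf1, Tcf3, Foxo1 and Pax5 they open and recombine the immunoglobulin heavy chain locus with the Rag1 and Rag2 recombinase, while Dntt, a template-independent DNA polymerase, adds nucleotides at the joints. A heavy chain that is made then pairs with the surrogate light chain of Vpreb1, Vpreb2 and Igll1 and signals through Cd79a and Cd79b as the pre-B receptor. Dntt is switched off at that step, the large pre-B cells divide, and Rag genes are used again when the cycle stops and the light chain loci recombine. In GRCm38, Dntt lies at chr19:41029275-41059525, Igll1 at chr16:16860671-16863985, Vpreb1 at chr16:16868401-16869255, Cd79a at chr7:24897497-24901858 and Rag1 at chr2:101638252-101649532.

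The libraries held 62416022 to 162869740 UMIs in 3042 to 9724 cell barcodes, and 1955 to 7745 cells per library were kept with a median depth of 11275 to 39561 UMIs. Dnmt3a replicate 1 kept 26.9% of its barcodes, against 66.7% to 94.4% in the other 13 libraries. Over all kept cells, Tnfrsf1b, the gene of Tnfr2, was at 4.82 ± 0.689 counts per 1000000 UMIs (CPM; SD, n = 4) in Dnmt3a;Tnfr2KO and at 14.9 ± 1.76 (n = 4) in Dnmt3a. Tnfrsf1a, the gene of Tnfr1, was still counted at 36.2 ± 2.49 CPM (n = 3) in Dnmt3a;Tnfr1KO, and Dnmt3a at 33.4 ± 4.40 CPM in Dnmt3a against 25.4 ± 4.98 (n = 3) in MxCre. A 3' tag outside a deleted part does not check a label, and the position of the deletions was not given. Of the barcodes of pro-B cells, 38 were also found among the kept cells of another library, and 0 of them were pro-B cells there too.

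A single library supplied most of the pro-B cells. Dnmt3a replicate 4 gave 1920 of them (91.3%), and the other 13 libraries gave 184 together. The remaining Dnmt3a libraries gave 59 (replicate 1), 4 (replicate 2) and 79 (replicate 3). In MxCre, replicates 1, 2 and 3 gave 1, 0 and 7 cells. Dnmt3a;Tnfr1KO replicates 1, 2 and 3 gave 3, 15 and 7, and Dnmt3a;Tnfr2KO replicates 1 to 4 gave 1, 0, 2 and 6. Levels of single genes are therefore given for the 3 Dnmt3a libraries with at least 20 pro-B cells, and beside them for the 4 further libraries with at least 5. Replicate 4 stands apart from the other libraries in number, and the shares are given with and without it.

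As a share of kept cells, pro-B cells made up 33.8% of Dnmt3a replicate 4, with a 95% Wilson interval of 32.58 to 35.04%. They made up 3.02% (2.35 to 3.87%) of replicate 1, 0.145% (0.0565 to 0.373%) of replicate 2 and 1.38% (1.11 to 1.71%) of replicate 3. Intervals and limits of this kind cover counting error only. The intervals of the 4 mice did not overlap, and no other library reached the share of replicates 1, 3 or 4. The share of replicate 1 rests on few kept cells, and was 0.852% when cells of at least 500 UMIs and 250 genes were kept.

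In MxCre the shares were 0.0162%, 0 and 0.152%, where 0 of 2876 cells allows a share of up to 0.104%. Dnmt3a;Tnfr1KO replicates 1, 2 and 3 held 0.0462%, 0.406% and 0.221%. Dnmt3a;Tnfr2KO replicates 1 to 4 held 0.0129%, 0, 0.0311% and 0.0881%, where 0 of 5903 cells allows up to 0.0508%. Shares of the last group all lay below the 0.145% of the lowest Dnmt3a library, while those of MxCre and Dnmt3a;Tnfr1KO overlapped Dnmt3a.

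**Figure D1:**
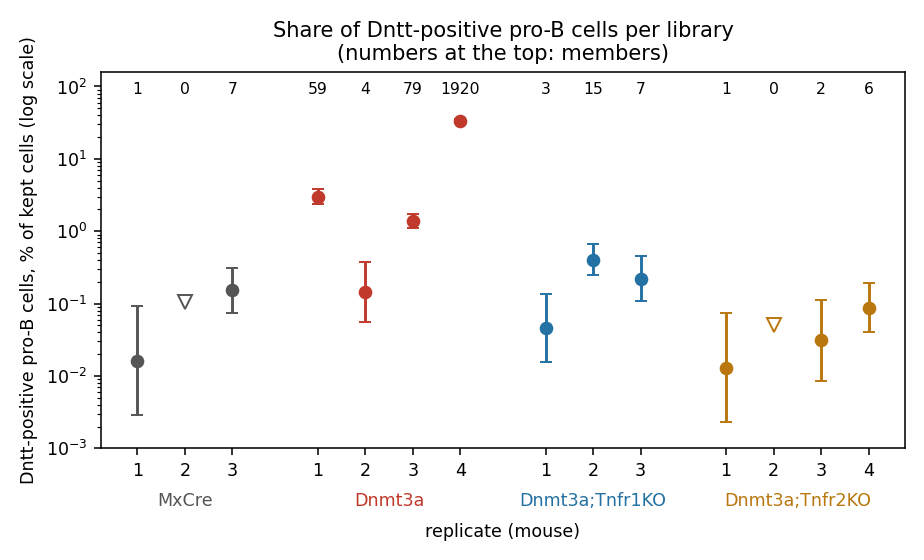
Share of Dntt-positive pro-B cells among kept cells (percent, log scale) in each of the 14 mice by group, with points for the share, bars for the 95% Wilson interval and open triangles for the upper limit where the count is 0. The numbers at the top are the pro-B cells, and Dnmt3a replicate 4 with 1920 cells (33.8%) lies above all others.

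The question of the genotype comparisons was whether mutant Dnmt3a, alone or with loss of either receptor of tumour necrosis factor alpha, came with a different share of these cells. The mean share was 9.59% ± 16.2 (SD, n = 4) in Dnmt3a and 0.0560% ± 0.0833 (n = 3) in MxCre, a difference of 9.53 percentage points that did not pass a two-sided exact permutation test over mice (p = 0.486, adjusted 0.514 over 4 comparisons). Dnmt3a;Tnfr1KO had 0.224% ± 0.180 (n = 3), 9.36 percentage points lower than Dnmt3a (exact p = 0.514, adjusted 0.514). The spread within Dnmt3a was larger than either difference.

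Dnmt3a;Tnfr2KO had a mean of 0.0330% ± 0.0389 (n = 4). All 4 of its mice were below all 4 Dnmt3a mice (exact p = 0.0286, the smallest that 4 against 4 allows), and after adjustment over the 4 comparisons the p was 0.114. Dnmt3a;Tnfr2KO and Dnmt3a;Tnfr1KO differed by 0.191 percentage points (exact p = 0.0571, adjusted 0.114). None of the 4 comparisons passed the 0.05 threshold after adjustment. Without replicate 4 the Dnmt3a mean was 1.51% ± 1.44 (n = 3). The differences were then 1.46 percentage points for Dnmt3a minus MxCre, -1.29 for Dnmt3a;Tnfr1KO minus Dnmt3a and -1.48 for Dnmt3a;Tnfr2KO minus Dnmt3a. With replicate 4 they were 9.53, -9.36 and -9.55. In a further setting, cells of at least 5000 UMIs were thinned to 5000 UMIs and shallower cells were left out. With all mice these 3 differences were then 5.88, -5.73 and -5.89, and the exact p of Dnmt3a;Tnfr2KO against Dnmt3a was 0.0571. Dnmt3a replicate 2 (0.0742%) then lay below Dnmt3a;Tnfr2KO replicate 4 (0.0925%). That setting left 775 pro-B cells among 3849 cells (20.1%) of Dnmt3a replicate 4, against 1920 among 5680, so it also removed many shallow pro-B cells. The choice of these cells was made with the excess in Dnmt3a known, so the direction in Dnmt3a is no independent evidence.

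Among cells that met the criteria other than that for Dntt, those with and without Dntt were divided differently from library to library. Dntt-negative cells that met the other criteria (called pre-B-gated below) numbered 14, 53 and 269 in Dnmt3a replicates 1, 3 and 4, and pro-B cells were 80.8%, 59.8% and 87.7% of the sum. In Dnmt3a;Tnfr1KO replicates 1, 2 and 3, pro-B cells were 21.4%, 31.3% and 28.0% of 14, 48 and 25 such cells. Dnmt3a replicate 2 had 4 cells of each kind, and the other libraries had at most 10 such cells. Pro-B cells were 33.3%, 0% and 77.8% of them in MxCre replicates 1 to 3. In Dnmt3a;Tnfr2KO replicates 1 to 4 they were 16.7%, 0%, 50% and 60%. The 3 Dnmt3a;Tnfr1KO libraries thus lay below all 4 Dnmt3a libraries, a difference that was not tested. Vpreb3 alone can meet the criterion shared with Vpreb1 and Igll1. Among pre-B-gated cells of at least 2000 UMIs, 57.1%, 33.3% and 85.7% had a Vpreb1 UMI in Dnmt3a replicates 1, 3 and 4. For Igll1 these shares were 35.7%, 30.6% and 85.3%, so surrogate light chain RNA was not counted in all pre-B-gated cells. Dntt can be missed in shallow cells, and depth differed between the 2 kinds of cell in unlike ways. Median depths of pre-B-gated and pro-B cells were 4554 and 5080 UMIs in Dnmt3a;Tnfr1KO replicate 1, 2607 and 13369 in replicate 2, and 3156.5 and 8856 in replicate 3. In Dnmt3a replicates 1 to 4 they were 8737 and 17393, 14809.5 and 30601, 2559 and 9497, and 9570 and 5018. The part of depth in this split was not tested.

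The edges of the criteria were thinly filled except for Dntt. Of the 2104 cells, 220 (206 of them in Dnmt3a replicate 4) held exactly 1 UMI of Dntt and 5 exactly 1 of Cd79a. Only 1 held exactly 2 of Vpreb1, Vpreb3 and Igll1 together. Just outside, 423 cells (269 of them in replicate 4) failed by Dntt alone and 26 by Cd79a alone. A further 13 failed by Vpreb1, Vpreb3 and Igll1 alone and 14 by Ms4a1 alone. Most cells therefore lay well inside the criteria for Cd79a and for Vpreb1, Vpreb3 and Igll1, and the Dntt criterion set the border.

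In the 3 Dnmt3a libraries with most of them, the selected cells carried B-lineage transcription factors. Ebf1, the factor that starts B commitment, had a UMI in 59 of 59 pro-B cells of Dnmt3a replicate 1, in 79 of 79 of replicate 3 and in 1918 of 1920 of replicate 4, at 2340, 1905 and 2329 CPM. The other cells of the same libraries had 2.90, 2.74 and 13.3 CPM. Here and below, the other cells of a library are those that are neither pro-B nor pre-B-gated cells. Pax5, which locks in B identity, was at 230, 141 and 303 CPM, against at most 2.98 in the other cells. Pre-B-gated cells held both genes too. Of those of at least 2000 UMIs in replicate 4, 82.3% had a UMI of Ebf1 and 69.7% of Pax5. Neither gene was used to select the cells, although both are known to go with the genes that were.

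The components of the pre-B receptor were high in all 3 libraries. Vpreb1, a part of the surrogate light chain, was at 1945, 1831 and 2460 CPM in Dnmt3a replicates 1, 3 and 4. Igll1, its other part, was at 904, 1007 and 1525 CPM. Cd79a was at 1164, 1350 and 2427 CPM and its partner Cd79b at 389, 441 and 894. Replicate 4 was thus highest for each of these genes. The heavy chain constant gene Ighm was at 810, 1550 and 997 CPM. Blnk, the adaptor that couples the receptor to Syk and Btk, was at 317, 270 and 530 CPM, while the kinase gene Blk was at 3.27, 9.47 and 0.317. Of 15 genes listed for the receptor and its signalling, 9 were over 2-fold above the other cells in each of the 3 libraries, where 7.64% of 9310 genes were. The list holds the genes used for selection, so nothing is read from that count.

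Genes of V(D)J recombination, the cutting and joining of immunoglobulin gene segments, were counted in all 3 mice. Rag1 was at 155 CPM in replicate 1, 52.1 in replicate 3 and 223 in replicate 4. The other cells, which leave out the pre-B-gated ones, had at most 0.745 CPM. Of pre-B-gated cells of at least 2000 UMIs in replicate 4, 38.5% had a Rag1 UMI. Rag2, the partner of Rag1, was at 89.1, 44.5 and 68.4 CPM. Dntt itself was at 588, 526 and 612 CPM and Xrcc6, a DNA end binding protein of the joining reaction, at 160, 124 and 251. Rag1, Rag2 and Dntt were all lowest in replicate 3, with a wider range between mice for Rag1 than for Dntt.

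Among transcription factors, Lef1, a nuclear partner of Wnt signalling that pro-B cells depend on, was at 548 CPM in replicate 1, 336 in replicate 3 and 282 in replicate 4. Foxo1, an activator of the Rag genes, was at 105, 88.0 and 117 CPM and Bach2, a repressor of the myeloid and plasma cell programmes, at 120, 81.4 and 188. Il7r, the receptor for the main growth factor of mouse pro-B cells, was at 286, 143 and 570 CPM. Replicate 4 was highest for Il7r and replicate 3 lowest, with 1 value per mouse and no replicate check. Of 21 B-lineage transcription factors, 11 were over 2-fold above the other cells in all 3 libraries, where 7.64% of 9310 genes were, and 0 were under 0.5 times the other cells, where 4.34% were.

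Genes of earlier and later stages were at unlike levels. Flt3, the receptor of lymphoid-primed progenitors, was at 6.54, 9.47 and 2.74 CPM and the later B-cell gene Cd2 at 0, 2.84 and 0.106. Il2ra, which marks small pre-B cells, was at 0.818, 0 and 3.27 CPM. Of 14 genes listed for later B-cell stages, 4 were over 2-fold above the other cells in all 3 libraries (Ighd, Cd22, Cd37 and Cd38) and 4 were under 0.5 times them (Ms4a1, which the selection set to 0, Cd74, H2-Aa and Fcer2a), where 7.64% and 4.34% of 9310 genes were. Cd37, a tetraspanin of B cells, was the highest of the first 4, at 303, 320 and 525 CPM. Kit, on which the sort was made, was at 91.6, 70.1 and 106 CPM in the pro-B cells and at 184, 87.7 and 76.2 in the other cells.

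**Figure D2:**
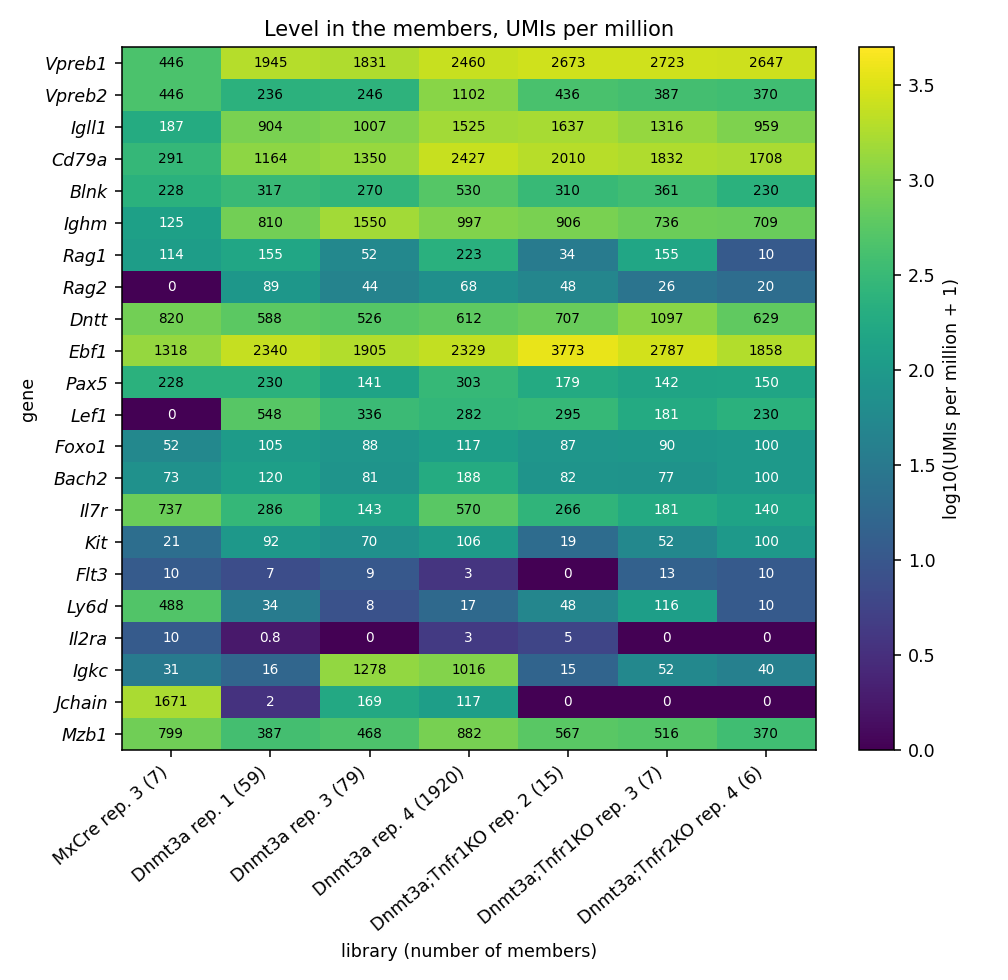
Level of 22 genes in the summed pro-B cells of the 7 libraries with at least 5 of them, as CPM printed in each cell and coloured on a log10 scale. In MxCre replicate 3 Vpreb1 is tied with Vpreb2 at 446, Igll1, Cd79a and Ebf1 are at their lowest of the 7 columns, Rag2 and Lef1 are at 0 and Jchain is at 1671.

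RNA of other lineages was present in part of the cells. The 12 granulocyte and monocyte markers summed to 3574, 6161 and 7243 CPM in the pro-B cells of Dnmt3a replicates 1, 3 and 4 and to 13263, 22496 and 53258 CPM in the other cells. The 9 erythroid markers summed to 258, 179 and 8696 CPM, against 1210, 635 and 24621. In replicate 4 the globin Hbb-bs had a UMI in 90.5% of pro-B cells, and in 98.5% of cells of the same library selected by granulocyte genes (at least 1% of their UMIs). At 2000 UMIs per cell these shares were 54.1% and 32.9%. Globin RNA was thus spread over cells of both lineages in that library.

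Cells with more than 0.5% of UMIs from the granulocyte list or more than 1% from the erythroid list numbered 117, of which 104 were in replicate 4, where 91 of the 104 were also called doublets. The median depth of these 104 cells was 25411 UMIs, against 4830 for the other pro-B cells of that library. Without them S100a8, a neutrophil protein gene, fell from 1534 to 103 CPM in replicate 4. In all, 164 of the 2104 cells were called doublets, 151 of them in replicate 4. Of 12 T, NK and innate lymphoid markers, Cd3g, Cd4 and Trdc were at 0 UMIs in the pro-B cells of all 3 libraries, and the list summed to 83.4, 254 and 108 CPM. Nkg7 alone gave 78.5, 236 and 101 CPM of these sums and was at 373, 642 and 624 CPM in the other cells.

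Part of the antibody RNA lay in single cells. In replicate 4, 5449 of 5556 UMIs of Igha lay in 1 cell, as did 1787 of 2210 UMIs of Jchain, the gene of the joining chain of secreted antibody. In replicate 3, 1327 of 1350 UMIs of the light chain gene Igkc and 177 of 179 of Jchain lay in 1 cell. Igkc in replicate 4 had a UMI in 991 of 1920 cells, with 9890 of 19254 UMIs in 1 of them. At 2000 UMIs per cell Igkc had a UMI in 31.2% of pro-B cells and 3.38% of granulocyte-gated cells of replicate 4 (52.1% and 44.3% before thinning, at median depths of 5102 and 45595 UMIs). In replicate 1 its 19 UMIs lay in 11 cells. The level of Igkc in replicate 3 (1278 CPM) is thus that of 1 cell, whereas in replicate 4 (1016 CPM) Igkc was also found in many other pro-B cells.

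Variable segments of the heavy chain were read in few cells. Sequencing from the 3' end seldom reaches them, and its part in the low counts was not tested. In replicate 4, 185 of 1920 pro-B cells (9.64%) held a UMI of an Ighv gene, with 263 UMIs of 31 genes, 14 of them in at least 2 cells. Ighv5-2, at chr12:113578504-113578990, had 84 UMIs in 78 cells, and Ighv1-38 had 55 UMIs in 55 cells. Ighv7-1 had 58 UMIs of which 55 lay in 1 cell. No single Ighv gene was therefore found in more than 4.06% of the cells of replicate 4. An Ighv UMI was seen in 8 of 59 pro-B cells (13.6%) of replicate 1 and in 5 of 79 (6.33%) of replicate 3, without any Ighv gene in 2 or more cells. Ighv genes are near-identical copies that counting can split, and the counts say nothing on the size of clones.

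The pro-B cells fell into dividing and non-dividing parts. Cells were divided by whether 40 S phase and G2/M genes made up at least 0.3% of their UMIs (called cycling) or less (low-cycle). Low-cycle cells were 13 of 59 (22.03%) in Dnmt3a replicate 1, 18 of 79 (22.8%) in replicate 3 and 1230 of 1920 (64.1%) in replicate 4. The first 2 mice were thus alike and replicate 4 was higher. The 0.3% border cuts a range, and 2, 3 and 46 cells lay between 0.2 and 0.4%. Low-cycle cells were shallower, with median depths of 6915, 2972.5 and 3901 UMIs against 18621, 10514 and 15987 for cycling cells.

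Rag1 went with the low-cycle cells in each mouse. Its level was 753, 291 and 654 CPM in the low-cycle cells of replicates 1, 3 and 4 and 88.1, 38.1 and 44.4 CPM in the cycling cells. Xrcc6 was at 426, 463 and 557 CPM against 131, 104 and 124, and the surrogate light chain gene Vpreb2 at 507, 1029 and 1931 against 205, 200 and 757. The ranges of the 3 libraries did not overlap for Rag1 and Xrcc6. Of the 13 recombination genes, Hmgb1 and Hmgb2 went the other way in all 3 libraries, with Hmgb1 at 1203, 1183 and 1276 CPM in low-cycle and 4709, 3259 and 3773 in cycling cells. Txnip, an inhibitor of thioredoxin and of glucose uptake, was at 450, 446 and 594 CPM against 81.8, 71.1 and 85.9. Btg2, an antiproliferative factor, was at 327, 737 and 455 CPM against 76.3, 98.2 and 87.2, and Mxd4, an antagonist of Myc, was at 213, 240 and 280 against 47.2, 43.1 and 39.4.

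Of the 1286 genes whose mean reached 100 CPM, 36 (2.8%) were at least 2-fold higher in the low-cycle cells of all 3 libraries and 85 (6.61%) at least 2-fold higher in the cycling cells, of which 21 were genes of the split itself. The other genes that were higher in cycling cells included Hmgb2, a DNA bending protein and cofactor of the Rag recombinase, at 5296, 3977 and 4736 CPM against 810, 531 and 463. Ebf1 was at 3674, 5503 and 4245 CPM in low-cycle and 2192, 1695 and 1532 in cycling cells. These genes were chosen after their values were seen, cells are not replicates, and no test was made.

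**Figure D3:**
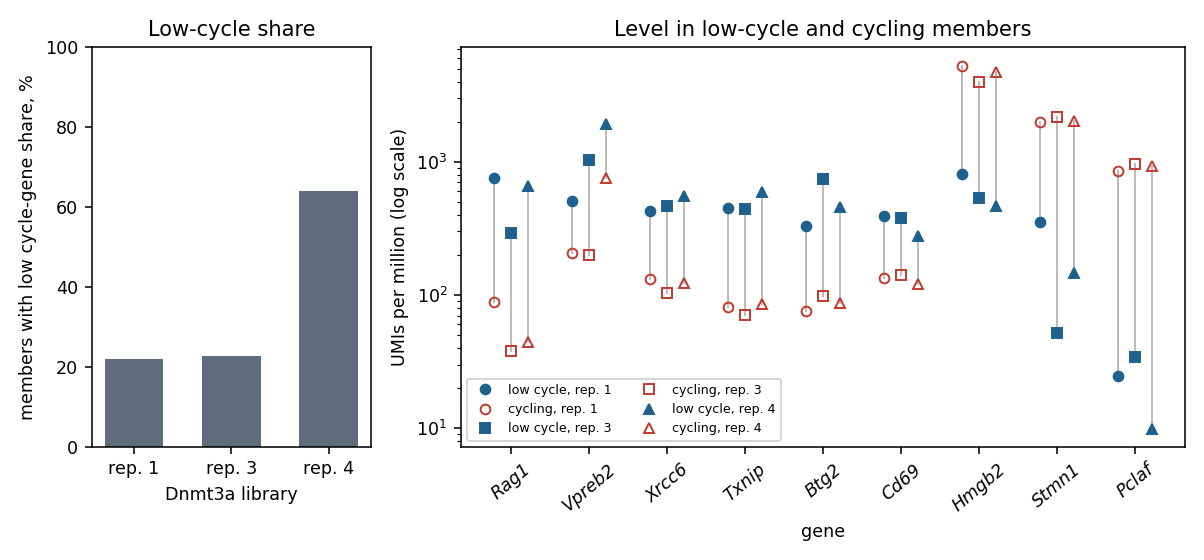
Left, bars of the percentage of pro-B cells with a low share of cycle genes in the 3 Dnmt3a libraries with at least 20 pro-B cells (22.03%, 22.8% and 64.1%). Right, the level of 9 genes (CPM, log scale) in low-cycle (filled) and cycling (open) cells of each library, with a grey line joining the pair from 1 library; Rag1 is higher in low-cycle cells of all 3, and Hmgb2 in cycling cells of all 3.

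Some genes were at higher levels in the pro-B cells of Dnmt3a replicate 4 than in those of replicates 1 and 3. With 10 CPM added, 23 of 8810 genes (0.261%) were at least 4-fold higher in its pro-B cells than in those of each of the other 2 libraries and also above the other cells of its own library, and 21 of the 23 had a UMI in at least 10% of the cells. For replicate 1 the same rule gave 23 genes (0.261%) and for replicate 3 it gave 1 (0.0114%). These are comparisons of single mice with no test, and the genes named were chosen after their values were seen.

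Gm525, a predicted gene at chr11:89073841-89093064, was at 669 CPM in the pro-B cells of replicate 4, with a UMI in 94.1% of them, and at 10.6 and 7.57 CPM in replicates 1 and 3. At 2000 UMIs per cell, which left out 30 cells of replicate 4, 2 of replicate 3 and 0 of replicate 1, the share of cells with a UMI was 73.8% in replicate 4, 0 of 59 in replicate 1 and 5.19% in replicate 3. In granulocyte-gated cells of replicate 4 it was 0.157%. Gm525 RNA was therefore not spread over the cells of the library.

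Lhx2, a homeobox factor best known from embryonic development, was at 66.3 CPM in the pro-B cells of replicate 4. It had 2 UMIs among the 2932694 UMIs of pro-B cells of the other 13 libraries together. Jhy had 0 UMIs there, which allows up to 1.02 CPM, and was at 30.8 CPM in replicate 4, at least 30.1-fold higher. Lhx2 was also counted in the pre-B-gated cells of replicate 4, at 35.03 CPM, and was at 0.158 CPM in its remaining cells. Lhx2 was thus shared by the cells of both B-lineage gates of that mouse.

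Further genes of the set encode proteins of unlike kinds. Rhoj, a small GTPase, was at 114 CPM in replicate 4 against 2.45 and 0.947 in replicates 1 and 3. Cd36, a fatty acid receptor, was at 139 CPM against 8.18 and 4.73. Igf1, a growth factor, was at 103 CPM against 1.64 and 3.79. Each of them was low in both other mice. Cyb5a, the electron carrier cytochrome b5, was at 714 CPM against 75.2 and 100, and Tmem108, a transmembrane protein, at 328 against 26.99 and 38.8. Vpreb2 was at 1102 CPM against 236 and 246; it is nearly identical to Vpreb1, and counting can divide reads between them.

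Within replicate 4 the set did not move as 1 block with the cycle. Igf1 was at 301 CPM in low-cycle and 20.5 in cycling cells, and Rhoj at 247 and 59.1. Cited1, a transcriptional cofactor, went the other way, at 3.06 and 66.7 CPM. When cycling cells alone were compared across the 3 libraries, 17 genes met the rule, 15 of them among the 23. The count was 5 at a fold of 8, 51 at a fold of 3 and 14 with 20 CPM added.

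Lower in replicate 4 were 2 genes (0.0227%). Hmgn1, a nucleosome binding protein, was at 35.8 CPM in its pro-B cells, against 267 and 386 in replicates 1 and 3. At 2000 UMIs per cell it had a UMI in 1.96% of pro-B cells of replicate 4, 42.4% of replicate 1 and 44.2% of replicate 3. Granulocyte-gated cells of replicate 4 had 27.3%, close to the 27.001% and 32.3% of those of replicates 1 and 3. Hmgn1 was thus low in the pro-B cells of that mouse and not in its granulocyte-gated cells. The other gene was Gm43305, at 26.7 CPM against 213 and 170.

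In replicate 1, 21 of the 23 genes that met the rule were histone genes, the others being Tsix and AY036118. Hist1h3c was at 1975 CPM in its pro-B cells against 112 and 107 in replicates 3 and 4. It was also high in the remaining cells of replicate 1, at 693 CPM against 43.3 and 78.9. Hist1h3c was therefore high both in the pro-B cells and in the sum of the other cells of replicate 1. Igkc and S100a8 (0.0227% of genes) were lower there, but in replicate 3 1327 of 1350 Igkc UMIs and 339 of 353 S100a8 UMIs lay in 1 cell each. Without cells that held RNA of other lineages, S100a8 was at 11.9 CPM in replicate 1 and 15.1 in replicate 3. Ccl5, the gene found for replicate 3, came from 1 cell.

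**Figure D4:**
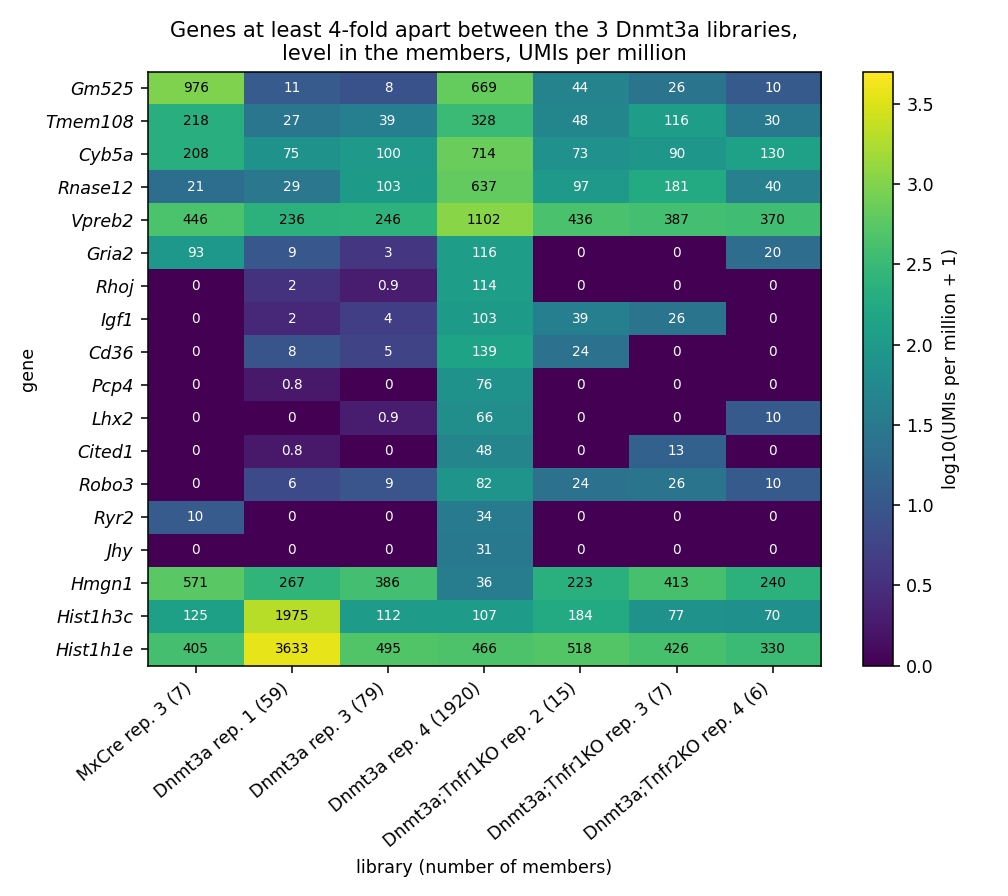
Level of 18 genes that were at least 4-fold apart between the 3 Dnmt3a libraries, in the summed pro-B cells of 7 libraries, as CPM printed in each cell and coloured on a log10 scale. Jhy has a value in Dnmt3a replicate 4 only, Hmgn1 is low there, Gm525 is also high in MxCre replicate 3, and the 2 histone genes are high in Dnmt3a replicate 1.

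The other groups held few pro-B cells, and their levels are given as description. In Dnmt3a;Tnfr1KO replicates 2 and 3 and Dnmt3a;Tnfr2KO replicate 4, Vpreb1 was at 2673, 2723 and 2647 CPM, Ebf1 at 3773, 2787 and 1858, and Lef1 at 295, 181 and 230. Vpreb1 lay above the range of the 3 Dnmt3a libraries in each of them, whereas Lef1 lay below it in the latter 2. The 12 granulocyte and monocyte markers summed to 228, 142 and 659 CPM, below the 3574 to 7243 of Dnmt3a. The Dnmt3a sums include 4, 6 and 104 cells with RNA of other lineages in replicates 1, 3 and 4. The median pro-B cell there held 0.0540%, 0.0522% and 0.0600% of its UMIs from this list, so the sums do not describe the typical cell. No such median was taken in the other groups. No group but Dnmt3a kept 2 libraries with at least 20, or with at least 10, pro-B cells, so expression was not tested between genotypes.

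The 7 cells of MxCre replicate 3 met the criteria but lacked part of the programme. Lef1 and Rag2 had 0 of their 96357 UMIs, which allows up to 31.1 CPM each, below the level of Lef1 in all 6 other libraries with at least 5 cells. Vpreb1 was at 446 CPM and Igll1 at 187, lower than in the 6 others. Ebf1 (1318 CPM) and Pax5 (228 CPM) were present, in 7 and 6 of the 7 cells. Vpreb1 and Igll1 were used for selection, so their levels are a description.

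They also held Jchain RNA, which few other pro-B cells had. Jchain was counted in all 7 cells, with 161 UMIs, at most 48 of them in 1 cell, and 1671 CPM in sum, against 0 to 169 elsewhere. Ly6d, which marks B-biased lymphoid progenitors, was at 488 CPM in 4 of 7 cells, against 7.57 to 116 in the other libraries with at least 5 pro-B cells. The single pro-B cells of MxCre replicate 1 and Dnmt3a;Tnfr2KO replicate 1 held 9 and 14 UMIs of Ly6d. Igha had 0 UMIs and Igkc had 3, all in 1 cell, while Ighm was at 125 CPM. Il7r was at 737 CPM and Cd93, a surface receptor of early B cells, at 571. Of the genes that set Dnmt3a replicate 4 apart, Gm525 was at 976 CPM in all 7 cells, Tmem108 at 218, Cyb5a at 208 and Gria2, a glutamate receptor subunit, at 93.4, whereas Rhoj, Igf1, Pcp4 and Lhx2 had 0 UMIs. All this rests on 7 cells of 1 mouse.

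Pro-B cells were then compared with the stage before them in the same mice. Lymphoid-primed progenitors were taken as cells with at least 1 UMI each of Dntt and Flt3 and 0 of the B-lineage genes Vpreb1, Vpreb3, Igll1 and Cd79a, among others. Only Dnmt3a replicates 1 (59 against 110 cells) and 3 (79 against 24) had 20 cells of both kinds, and UMI sums were compared with edgeR's quasi-likelihood test with the library as a block. Both kinds were defined by their RNA, so genes that go with the selecting genes differ by choice. Genes with little RNA in lymphoid-primed cells can pass the count filter through the pro-B cells alone, and their p-values are given as description. Of 8499 genes, 1269 (14.9%) were higher in pro-B cells and 1141 (13.4%) lower at an adjusted p below 0.05. With 2 libraries the spread has little support: DESeq2 called 427 higher and 259 lower, and the fit without the library block called 301 and 105.

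The B-lineage factors were higher in pro-B cells. Of 21 listed, 19 were tested, and 11 were higher and 3 lower, where 14.9% and 13.4% of all genes tested were. Their median log2 difference was 1.58, against 0.0078 over all genes tested. Ebf1 was at 2340 and 1905 CPM in the pro-B cells of replicates 1 and 3 and at 0.876 and 0 CPM in the lymphoid-primed cells. Lef1 was at 548 and 336 CPM against 0 UMIs in both, at least 834-fold and 65.7-fold higher when 3 counts per library are set for 0. Pou2af1, a coactivator of immunoglobulin genes, was at 159 and 127 CPM against 0, at least 241-fold and 24.8-fold higher. Lower were Ikzf2, Irf8 and Sox4. The adjusted p of Lef1 was 9.97e-21 and that of Ebf1 1.78e-26 by edgeR's quasi-likelihood test, and 0.0486 and 2.18e-29 by DESeq2. Pou2af1 lost its call by DESeq2 (adjusted p = 0.122). Lef1, Ebf1 and Pou2af1 passed the count filter through the pro-B cells alone, so nothing is read from these p-values.

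Among the recombination genes, 6 of 11 tested were higher (Rag1, Rag2, Lig4, Xrcc6, Hmgb1 and Hmgb2) and 0 lower, where 14.9% and 13.4% of all genes tested were. Rag1 was at 155 and 52.1 CPM against 1.75 and 0, and Rag2 at 89.1 and 44.5 against 6.13 and 8.53 (log2 difference 3.64 ± 0.29, standard error, edgeR adjusted p = 4.67e-11). Dntt, used in both definitions, was at 588 and 526 CPM against 332 and 119. Of 8 tested genes of the pre-B receptor list, 5 were higher (Cd79b, Ighm, Syk, Vpreb2 and Blnk) and 0 lower, against the same 14.9% and 13.4%. Of 14 genes listed for later B-cell stages only 5 passed the count filter. All 5 were higher, among them Cd37 at 303 and 320 CPM against 84.97 and 143, and Igkc, most of whose UMIs in replicate 3 lay in 1 cell. Over all genes tested 14.9% were higher. Lymphoid-primed cells were selected without B-lineage RNA, and such genes can pass the filter through the pro-B cells alone, so nothing is read from that count.

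Further genes with no or almost no RNA in lymphoid-primed cells were Cplx2, a regulator of vesicle release, at 463 and 320 CPM against 0.438 and 0, and Slamf7, an immune cell receptor, at 92.4 and 105 against 0 in both. Gfra2 and Gfra1, receptors of the glial cell line-derived neurotrophic factor family, were at 108 and 63.4 and at 77.7 and 53.0 CPM against 0. Hes1, a Notch target repressor, was at 68.7 and 63.4 CPM against 0, and Cecr2 at 153 and 92.8 against 0. All of these were called higher by the edgeR test, with adjusted p from 9.97e-21 (Cplx2) to 3.20e-13 (Hes1). They passed the count filter through the pro-B cells alone, against cells selected without B-lineage RNA, so nothing is read from these p-values. By DESeq2, Cecr2 (adjusted p = 0.134), Slamf7 (0.163), Gfra2 (0.173) and Gfra1 (0.210) lost the call, and Cplx2 and Hes1 did not. With 3 counts per library set for 0, Hes1 was at least 105-fold and 12.4-fold higher.

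Of 6 stem cell markers, 3 were tested, and 2 were lower in pro-B cells (Hlf and Meis1) and 1 higher (Mllt3, log2 difference 1.13, edgeR adjusted p = 0.00505). Over all genes tested 13.4% were lower and 14.9% higher. Cd34, a surface protein of stem and progenitor cells, was at 55.6 and 86.2 CPM in the pro-B cells of replicates 1 and 3 and at 448 and 390 in the lymphoid-primed cells (log2 difference -2.62 ± 0.15, edgeR adjusted p = 6.72e-14). Bcl2, an inhibitor of cell death, was at 36.8 and 47.3 CPM against 219 and 261 (-2.53 ± 0.16). Hlf was at 8.18 and 13.3 CPM against 107 and 32.4 and Meis1 at 7.36 and 14.2 against 71.2 and 47.7. Angpt1, a vascular and stem cell niche ligand, was at 17.2 and 30.3 CPM against 168 and 87.0. Gcnt2, Dipk1b, Ctla2a, Lat2 and Wfdc17 were also among the 10 genes with the largest fall.

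Of 13 tested early receptors, 3 were higher (Il7r, Bst1 and Cd24a), where 14.9% of all genes were, and 5 lower, among them Cd34, Notch1, Kit and Csf1r, where 13.4% were. Il7r was at 286 and 143 CPM against 4.82 and 11.9 (log2 difference 5.50 ± 0.26, edgeR adjusted p = 3.51e-16). Notch1, the receptor that directs lymphoid progenitors to the T lineage, was at 26.99 and 20.8 CPM against 70.5 and 42.6. The B-lineage growth factor receptor was thus higher where the T-lineage receptor was lower.

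All 20 tested G2/M genes were higher in pro-B cells, where 14.9% of all genes tested were, with a median log2 difference of 1.32. Ube2c, a mitotic ubiquitin conjugating enzyme, was at 780 and 889 CPM against 239 and 121, and Mki67 at 1712 and 761 against 685 and 213. Of 20 S phase genes, 5 were higher (Pcna, Tyms, Slbp, Rrm2 and Uhrf1), against 14.9% of all genes tested. A further 10 were lower, against 13.4% of all genes tested, among them the replication licensing genes Mcm2 to Mcm7. Mcm6 was at 159 and 174 CPM against 292 and 276 (log2 difference -0.79 ± 0.13, edgeR adjusted p = 1.25e-05). The G2/M genes thus all moved one way and the S phase genes did not. Pro-B cells were shallower, with median depths of 17393 and 9497 UMIs against 38640 and 19970. Of 11 tested granulocyte and monocyte markers 3 were higher (S100a8, S100a9 and Ly6c2) and 5 lower (Prtn3, Lyz2, Mpo, Ctsg and Csf1r), against 14.9% and 13.4% of all genes. The part of depth or of RNA of other lineages in these calls was not tested.

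**Figure D5:**
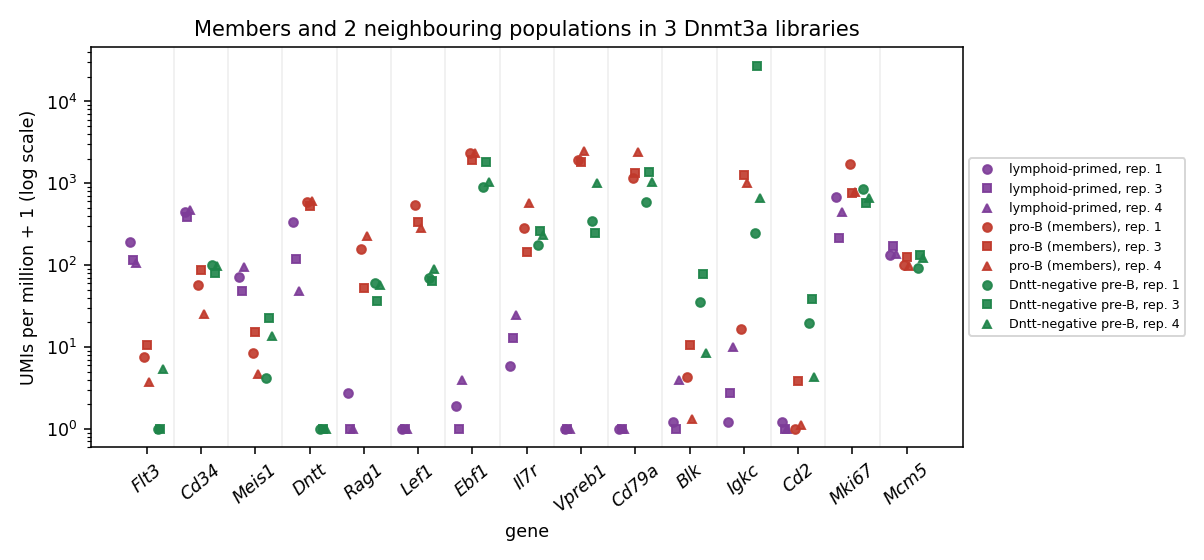
Level of 15 genes (CPM plus 1, log scale) in lymphoid-primed cells, pro-B cells and Dntt-negative pre-B-gated cells of Dnmt3a replicates 1, 3 and 4, with 1 point per library and kind of cell. Flt3 and Cd34 are highest in lymphoid-primed cells, Lef1 in pro-B cells of each library, and Igkc reaches 27509 in the pre-B-gated cells of replicate 3.

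Against the Dntt-negative pre-B-gated cells few genes were called. Dnmt3a replicates 3 (79 against 53 cells) and 4 (1920 against 269) were compared, and by the same edgeR test 5 of 10145 genes (0.0493%) were higher and 7 (0.069%) lower in pro-B cells. Higher were Lef1, Arpp21, Igf1, Pcp4 and Speer2, and the lower ones included Fcrla, Myl4, Iglc1, Blk, Nrgn and Fkbp11. All 12 calls were lost with Dntt of at least 2 UMIs, without called doublets and without the library block, where 873, 379 and 450 genes had an unadjusted p below 0.05. The log2 difference of Lef1 was 1.999, 1.84 and 1.93 in these settings, against 1.91, and 1.29 (edgeR adjusted p = 0.9998) without cells that held RNA of other lineages. The calls cannot be had without replicate 4, since 1 library would remain. Without cells that held RNA of other lineages 3 genes were called, all lower, 2 of them among the 12.

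Lef1 was at 336 and 282 CPM in the pro-B cells of replicates 3 and 4 and at 62.4 and 88.1 in the pre-B-gated cells (log2 difference 1.91 ± 0.29, edgeR adjusted p = 0.0287). Arpp21, a phosphoprotein of the cyclic AMP pathway, was at 92.8 and 76.9 CPM against 2.71 and 10.8. Blk, a Src family kinase of B cells, was at 9.47 and 0.317 CPM against 76.0 and 7.49, and Fcrla, an Fc receptor-like protein of B cells, at 1.89 and 2.32 against 396 and 16.96. Igf1 was at 3.79 and 103 CPM against 0 and 12.3, and Pcp4 had 0 UMIs in both kinds of cell of replicate 3, so these calls rest on replicate 4. Iglc1, a light chain constant gene, was at 18.9 and 1.58 CPM against 608 and 7.05. Fcrla and Iglc1 thus differed by a larger factor in replicate 3 and Blk in replicate 4.

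The pre-B-gated cells were not of 1 kind in the 3 libraries. Those of replicate 3 held Igkc at 27509 and Jchain at 4191 CPM, and those of replicate 1 held Hbb-bs at 14832 CPM. The granulocyte and monocyte list summed to 14345, 8356 and 19315 CPM in replicates 1, 3 and 4, above the 3574, 6161 and 7243 of the pro-B cells. Their part in the calls was not tested. With libraries of at least 10 cells of each kind, which brought in replicate 1 and Dnmt3a;Tnfr1KO replicate 2, 180 genes were called, 108 higher and 72 lower; Lef1, Rag2, Vpreb2, Blnk, Runx1, Erg, Tcf4 and Cenpf were the higher and Blk, Ly6d, Iglc1, Prtn3, Mpo, Ms4a3, Nkg7 and Tnfrsf1a the lower ones of the gene lists.

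Of the study's target genes, both receptor genes were lower in pro-B cells than in the other cells, and Dnmt3a was higher, though by little in replicates 1 and 3. Tnfrsf1a was at 16.4, 21.8 and 11.8 CPM in those of Dnmt3a replicates 1, 3 and 4 and at 38.5, 54.6 and 64.7 in the other cells. It was lower than in the lymphoid-primed cells (log2 difference -0.98 ± 0.27, edgeR adjusted p = 0.00631) and did not pass against the pre-B-gated cells (-1.35 ± 0.39, adjusted p = 0.233). Tnfrsf1b was at 8.996, 9.47 and 9.82 CPM against 15.6, 14.4 and 18.8, and Dnmt3a at 45.8, 34.1 and 53.3 against 38.8, 30.4 and 30.7. These directions against the other cells were the same in each of the 3 libraries and were not tested. The Dnmt3a levels rest on 56, 36 and 1010 UMIs, so the differences in replicates 1 and 3 may be counting error only. In Dnmt3a replicate 2 the gene was at 26.7 CPM (3 UMIs) in pro-B cells and 29.4 over all kept cells. By edgeR, Tnfrsf1b and Dnmt3a passed neither against lymphoid-primed cells (adjusted p = 0.607 and 0.577) nor against pre-B-gated cells (0.999 and 0.896).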

How the data were processed

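The deposited matrices hold raw UMI counts per gene and barcode for 32285 genes, counted by Cell Ranger 6.0.0, as stated per the file headers; bcl2fastq 2.20.0.422 and the builds mm10 and GRCm38 are named in the submitters' processing notes, and the annotation release is not given in the sources used here. The pro-B cells, the gene lists and the rules were chosen with earlier results of these data known. Shares were compared by two-sided exact permutation tests over mice, adjusted by Benjamini-Hochberg over 4 comparisons; p-values measure only the spread between these mice.

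UMI counts were summed per library and kind of cell. Sums of at least 20 cells were tested in R 4.3.3 with edgeR 4.0.16 (TMM scaling, filterByExpr, quasi-likelihood test, library as a block, adjusted over all genes tested), and DESeq2 1.42.0 was an alternative. On simulated counts with 200 genes changed 4-fold, 98% (9869 genes, pro-B against pre-B-gated) and 96% (8208 genes, pro-B against lymphoid-primed) were recovered, and 4.39% and 2.54% of calls were false. The simulation gave all libraries the same mean profile and every gene the same spread, and changed only genes of at least 50 CPM on average. It held no differences between libraries and no single cells with extreme counts, so these percentages do not describe the fits to the real counts. The named genes are those of 16 lists and, per tested comparison, up to 10 called genes in each direction with the largest log2 difference, 50 CPM or more on average in 1 kind of cell and 1 direction in every library. CPM are summed counts per 1000000 UMIs of the cells, without TMM factors. Doublets were called per library from simulated doublets among 20 nearest neighbours at 0.8% per 1000 cells and were kept in the main values. Positions are from RefSeq for GRCm38.p6, in which 81.6% of gene symbols matched. Some genes, among them 1 that had to be at 0 UMIs in lymphoid-primed cells, are not reported here.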

Additional observations from a re-analysis of the deposited data

Results flagged for a closer look

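The share of pro-B cells in Dnmt3a replicate 4, 33.8%, was far from the other 3 mice of its group: its gap to the next mouse was 0.915 of the range of the group, above Dixon's 95% critical value for 4 mice. In 6 groups of 4 values examined in this way it was the only one found, and chance gives about 1 in 20 for each group examined. The pro-B cells were chosen with the excess in this mouse known, so the value is a description and no independent evidence.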

How the results depend on the processing

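The 4 differences in share kept their direction and stayed above the 0.05 threshold after adjustment under all settings that were run. The smallest exact p that the permutation test allows with all mice is 0.0286, which became 0.114 after adjustment for Dnmt3a;Tnfr2KO minus Dnmt3a. The replicate block allows no p below 0.05. Staying above the threshold was thus largely set by the number of mice and is no sign of stability. Leaving out 1 mouse at a time gave 1.46 to 12.7 percentage points for Dnmt3a minus MxCre, -12.5 to -1.29 for Dnmt3a;Tnfr1KO minus Dnmt3a, -12.7 to -1.48 for Dnmt3a;Tnfr2KO minus Dnmt3a and -0.280 to -0.100 for Dnmt3a;Tnfr2KO minus Dnmt3a;Tnfr1KO, the smallest difference from Dnmt3a being without its replicate 4 each time. Thinning cells of at least 5000 UMIs to 5000 UMIs, with shallower cells left out, gave 5.88, -5.73, -5.89 and -0.156. With a replicate block the differences were 1.46, -1.29, -9.55 and -0.210 (exact sign-flip adjusted p 0.333, 0.5, 0.333 and 0.333). MxCre and Dnmt3a;Tnfr1KO have no replicate 4, so the block left out replicate 4 of the other group in comparisons with them. The values 1.46 and -1.29 are thus those without Dnmt3a replicate 4, and an effect of the block itself was not tested. Same-numbered mice did not deviate together (correlations over 7498 genes from -0.417 to 0.451 in 13 pairs, 4 best with their own number), so the numbers were not taken as pairs.

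Of pro-B against pre-B-gated cells, 12 genes were called; 232 without the filter on low counts, 180 with at least 10 cells, 0 with no replicate block, 0 with Dntt of at least 2 UMIs, 0 without called doublets and 3 without cells with RNA of other lineages, the last chosen after seeing the data. The cause was not tested. DESeq2 called 15, sharing 3 with the 12. Against lymphoid-primed cells, 2410 genes were called, 686 by DESeq2 and 406 with no replicate block, and 2390 to 2798 in the other 4 settings. Of 182 further values of named genes and of genes specific to replicate 4, 36 calls were lost and 0 reversed. Against lymphoid-primed cells 6 calls were lost, all by DESeq2, and the other losses lay in the comparison with pre-B-gated cells. Another 3 of the values were counts of genes specific to replicate 4 that moved: 5 at a fold of 8, 51 at a fold of 3 and 14 with 20 CPM added. Leaving out a library left no residual degrees of freedom, at least 50 cells left 1 library against lymphoid-primed cells, and leaving out cells with RNA of other lineages left fewer than 2, so these were not run. Gene tests between genotypes and their alternatives were not run for want of pro-B cells outside Dnmt3a, where a level of 0 allows up to 31.1 CPM in the 7 cells of MxCre replicate 3.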
